A study of Mus musculus with 10 samples.

Results

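The regions described here are 809 open-chromatin peaks that were read far more often in mouse brain than in mouse lung and that lay away from the ends of protein-coding genes. They were chosen among 37513 peaks by measured values. Each library was scaled to reads per 1000000 reads in nuclear peaks (RPM). An autosomal peak was taken if its centre lay more than 1 kb from every protein-coding gene end, if each of the 4 brain libraries gave at least 2 reads, and if (mean brain RPM + 1)/(mean lung RPM + 1) was at least 6. That quotient is called the ratio below. Of 36696 autosomal peaks, 23291 lay away from gene ends, 10428 of these had the reads required in brain, and 809 of the 10428, or 7.76%, reached the ratio. Without the requirement on reads 967 peaks away from gene ends, 4.15%, did so. Since the rule used the difference between brain and lung, that difference is described at these peaks and not tested. The values nearest to the threshold were close on either side: ratios of 6.06 and 6.04 inside it, at peaks assigned to Tank and Brinp1, and 5.998, 5.997 and 5.994 outside it, at peaks in Fcho1, Trim2 and Gtf2f2.

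The libraries came from wild-type C57BL/6J mice, an inbred laboratory strain. ATAC-seq uses the transposase Tn5, which inserts adapters where chromatin is open, and here Tn5 acted on the frozen section before nuclei were cut out by laser. A library held either 50 nuclei captured singly or about 200 nuclei captured as 10 areas of about 20, with 2 brain and 3 lung libraries at each size. The labels speak of technical replicates and name neither animals, age, sex nor brain region, so p-values measure the spread between these libraries, and the number of nuclei and the way of capture changed together.

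Nuclear reads numbered 319307 to 465489 in the brain libraries and 340697 to 3075377 in the lung libraries, so that 1 read was worth 2.15 to 3.13 RPM in brain and 0.325 to 2.94 RPM in lung. Mitochondrial reads, which do not enter RPM, were 93.4 to 95.8% of reads in brain and 24.7 to 58.0% in lung. Lung 50-nuclei replicates 2 and 3 stood apart: they had a read at 62.2 and 56.7% of the 10428 peaks with enough brain reads, against 90.4% in replicate 1 and 95.3 to 96.1% in the lung 200-nuclei libraries. The tissue labels were checked at the gene-end peaks of marker lists. Summed over 19 such peaks of pan-neuronal genes, the level was 814 to 978 RPM in brain and 340 to 560 RPM in lung. The sum over 9 peaks of lung mesenchyme genes was 70.2 to 128 RPM in brain and 238 to 462 RPM in lung, while the sums for alveolar and airway epithelium overlapped, at 512 to 629 RPM and 534 to 719 RPM.

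Distal and intragenic open chromatin includes enhancers, short stretches that bind transcription factors and raise the activity of a gene that can lie far away, and also starts of alternative transcripts within a gene. Enhancers differ between cell types more than the main promoters do, and the long genes of neurons and glia for adhesion molecules, ion channels and receptors hold many of them. A brain mini-bulk mixes neurons, astrocytes, oligodendrocytes and other cells. A lower level in such a mixture cannot be told apart from fewer cells of the type in which the site is open.

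For 59 of the 809 peaks, 7.29%, the position overlapped the window from 250 bases before to 50 bases after a transcript start in RefSeq (GRCm38.p6, the assembly of mm10). The sequences that follow are the 250 bases before such starts, 5′ to 3′ on the strand of the transcript, credited to RefSeq. Bases inside the brain-specific peak are in capitals. The first 3 are shown because they belong to the peaks with the highest brain levels, and their printed bases lie wholly inside the peak. The others are starts inside neuronal genes, Ndrg4, Fez1 and Grik2, and starts of the non-coding RNAs nearest to Mef2c and Cenpm. The windows are chr16:31429727-31430026 on the minus strand for the non-coding RNA Gm15743 in Bdh1, chr1:50927273-50927572 on the plus strand for Tmeff2 and chr14:93890620-93890919 on the minus strand for Pcdh9. They are chr8:95702806-95703105 on the plus strand for Ndrg4, chr9:36832490-36832789 on the plus strand for Fez1 and chr10:49788705-49789004 on the minus strand for Grik2. The last pair is chr13:83732243-83732542 for C130071C03Rik and chr15:82255872-82256171 for 1500009C09Rik, both on the plus strand.
Gm15743 in Bdh1: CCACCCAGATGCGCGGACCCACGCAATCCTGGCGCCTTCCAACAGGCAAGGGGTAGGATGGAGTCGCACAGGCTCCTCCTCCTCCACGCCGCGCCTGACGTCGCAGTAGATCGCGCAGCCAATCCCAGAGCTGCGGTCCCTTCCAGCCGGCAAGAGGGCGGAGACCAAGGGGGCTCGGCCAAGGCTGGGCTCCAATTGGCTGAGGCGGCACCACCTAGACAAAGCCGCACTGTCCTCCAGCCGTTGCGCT
Tmeff2: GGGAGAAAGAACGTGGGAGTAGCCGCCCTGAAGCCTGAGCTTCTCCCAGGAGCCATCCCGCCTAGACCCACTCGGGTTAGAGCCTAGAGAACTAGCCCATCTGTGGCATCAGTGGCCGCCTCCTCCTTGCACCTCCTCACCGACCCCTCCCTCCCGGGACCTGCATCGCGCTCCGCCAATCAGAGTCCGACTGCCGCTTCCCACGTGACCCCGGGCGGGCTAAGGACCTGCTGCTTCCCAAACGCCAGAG
Pcdh9: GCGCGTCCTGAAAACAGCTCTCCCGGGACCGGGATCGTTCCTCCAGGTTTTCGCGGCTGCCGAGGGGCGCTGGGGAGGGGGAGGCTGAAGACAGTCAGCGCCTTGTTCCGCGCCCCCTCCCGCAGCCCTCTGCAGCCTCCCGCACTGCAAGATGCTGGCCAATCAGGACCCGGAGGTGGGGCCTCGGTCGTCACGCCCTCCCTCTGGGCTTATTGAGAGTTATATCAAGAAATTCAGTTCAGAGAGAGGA
Ndrg4: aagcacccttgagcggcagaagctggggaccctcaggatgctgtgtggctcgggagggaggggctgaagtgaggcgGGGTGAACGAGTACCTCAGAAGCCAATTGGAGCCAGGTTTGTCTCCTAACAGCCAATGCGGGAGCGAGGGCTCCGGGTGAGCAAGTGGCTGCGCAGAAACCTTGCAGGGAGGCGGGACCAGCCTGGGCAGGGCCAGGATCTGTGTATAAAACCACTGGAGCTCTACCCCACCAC
Fez1: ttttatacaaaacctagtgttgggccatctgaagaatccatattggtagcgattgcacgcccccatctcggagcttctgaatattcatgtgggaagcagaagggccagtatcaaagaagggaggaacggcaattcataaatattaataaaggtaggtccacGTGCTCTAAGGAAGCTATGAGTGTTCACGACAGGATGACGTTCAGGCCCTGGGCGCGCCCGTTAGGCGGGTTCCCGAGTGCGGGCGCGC
Grik2: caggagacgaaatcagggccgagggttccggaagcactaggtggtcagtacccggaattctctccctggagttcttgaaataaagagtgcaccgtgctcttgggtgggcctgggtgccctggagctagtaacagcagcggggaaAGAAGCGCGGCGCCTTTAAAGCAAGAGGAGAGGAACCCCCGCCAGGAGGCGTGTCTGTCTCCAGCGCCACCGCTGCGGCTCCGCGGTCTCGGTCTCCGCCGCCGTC
C130071C03Rik near Mef2c: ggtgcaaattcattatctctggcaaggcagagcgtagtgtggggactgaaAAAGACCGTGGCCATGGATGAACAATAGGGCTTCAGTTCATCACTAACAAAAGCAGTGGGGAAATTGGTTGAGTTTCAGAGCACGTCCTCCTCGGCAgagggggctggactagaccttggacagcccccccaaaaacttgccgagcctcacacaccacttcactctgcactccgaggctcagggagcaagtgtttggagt
1500009C09Rik near Cenpm: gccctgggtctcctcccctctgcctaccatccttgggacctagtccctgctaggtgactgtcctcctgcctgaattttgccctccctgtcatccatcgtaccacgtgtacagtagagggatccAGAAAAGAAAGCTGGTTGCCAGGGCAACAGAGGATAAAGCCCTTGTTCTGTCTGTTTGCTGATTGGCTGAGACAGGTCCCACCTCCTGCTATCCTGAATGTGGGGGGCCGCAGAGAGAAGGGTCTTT

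The peaks were narrower and lay farther from gene ends than the other peaks with enough brain reads. Their median width was 111 bp (quartiles 95 and 145), against 185 bp for the 9619 other peaks that had enough brain reads, and 58.6% were narrower than 120 bp, against 22.9%. Inside protein-coding genes lay 499 peaks, 61.7% of the 809, against 60.4% of the others, and the remaining 310 were intergenic. The nearest gene end was a median of 27004 bp away, against 12314 bp, and 18.9% lay more than 100 kb from it, against 7.08%. Host genes were long: with a gene counted once for each peak it held, their median length was 130048 bp against 65980 bp. Of the gene-body peaks, 24.6% lay in a gene longer than 300 kb, against 9.98%. All 23291 peaks away from gene ends, with no requirement on reads, lay between the 809 and the others in width, distance and host length. Their median width was 139 bp, with 39.6% under 120 bp. Their median distance was 18680 bp, with 11.3% beyond 100 kb. Their median host length, counted in the same way, was 90799 bp, with 13.4% of gene-body peaks in genes over 300 kb. The most remote peak was 1294093 bp from the nearest gene end, that of Mrpl39. A peak inside Lsamp, an adhesion protein on neurons and glia, followed at 984015 bp, and one nearest to Ndufa4 at 929303 bp.

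**Figure D1:**
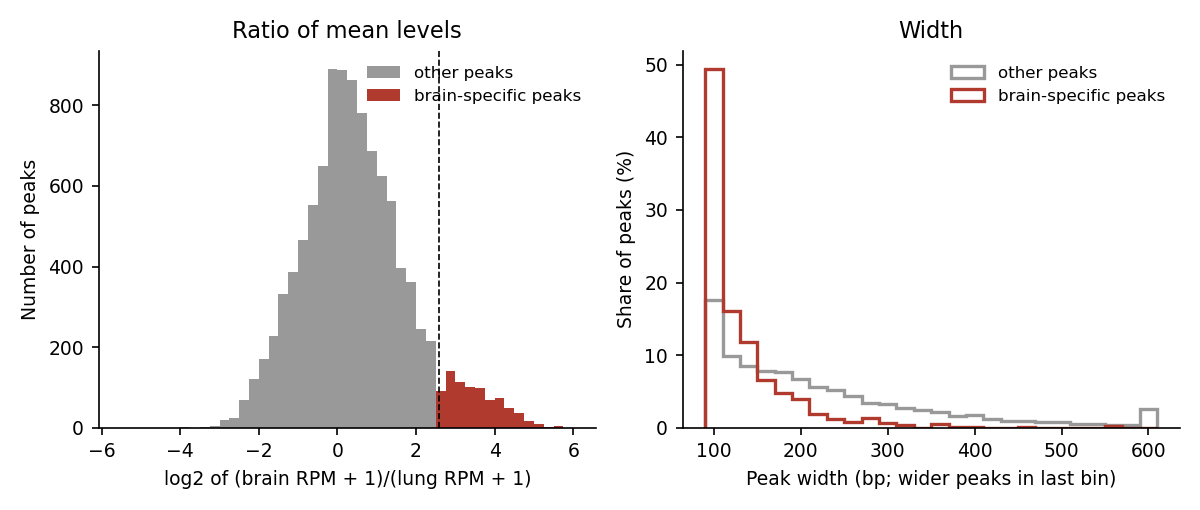
Left, number of peaks by log2 of the ratio, for the 10428 peaks with at least 2 reads in each brain library, with the threshold of 6 as a dashed line; right, share of peaks (%) by width in bp. The 809 brain-specific peaks, in red, form the upper tail on the left by construction, and on the right they gather in the narrowest widths, with a median of 111 bp against 185 bp for the other peaks.

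Brain levels of the 809 peaks ran from 8.43 to 195 RPM with a median of 21.9 RPM, and lung levels from 0 to 27.7 RPM with a median of 1.03 RPM. The median ratio was 10.4 and the highest 51.8; 231 peaks had ratios of 6 to 8 and 99 of at least 20. All 4 brain libraries were above all 6 lung libraries at 767 peaks, 94.8%. Over all nuclear peaks that share was 8.4%. In the edgeR fit 771 of the 809 were called higher in brain and none lower. Of the 37464 peaks tested, 9.67% were called for tissue, 5.82% higher in brain and 3.85% lower. Since the rule chose on this difference, nothing is read from these counts or from the lack of overlap at single peaks below. Depth was low: the median peak held 34 reads summed over the brain libraries. The lowest brain library had exactly 2 reads at 164 peaks, 20.3%, against 29.6% of the 10428. Lung 50-nuclei replicates 2 and 3 both lacked a read at 723 of the 809, against 2494 of the 10428. Their nuclear reads, 340697 and 547792, were not fewer than the 319307 to 465489 of the brain libraries. The rule favours peaks with few lung reads, so nothing is read from the 723. At some peaks the direction also depends on the scale. Relative to all reads in peaks, mitochondrial reads included, 19 of the 97 peaks reported by rule had a lower mean in brain than in lung, and 78 did not. No peak met the rule on that scale. The rule still added 1 RPM there, so it needed a brain mean of at least 5 RPM even without lung reads. With brain reads mostly mitochondrial, most peaks could not reach that mean, and the absence of peaks shows no direction.

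The highest brain level was at a peak in Bdh1, which encodes a mitochondrial enzyme of ketone body metabolism. It lay at chr16:31429555-31430118, over the start of the non-coding RNA Gm15743 shown above. The brain libraries gave 186 and 213 RPM at 50 nuclei and 203 and 178 RPM at 200 nuclei, and the lung libraries 0 to 61.6 RPM with a median of 27.1 RPM. The groups did not overlap, and lung was higher here than at any other of the 809 peaks, so the ratio was only 6.83; relative to all reads in peaks the log2 ratio was -0.68.

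Tmeff2, a transmembrane protein with follistatin-like and EGF-like domains, held the next highest peak at chr1:50927076-50927629, over a start within the gene. Its brain values were 153 and 179 RPM at 50 nuclei and 97.8 and 172 RPM at 200 nuclei, and its lung values 0 to 52.8 RPM with a median of 9.29 RPM. The lowest brain library was above the highest lung library. The ratio was 9.66, and relative to all reads the log2 ratio was -0.14. In Pcdh9, a protocadherin of neuronal adhesion, a peak at chr14:93890657-93891066 gave 109 and 141 RPM at 50 nuclei and 165 and 107 RPM at 200 nuclei in brain, against 0 to 38.2 RPM in lung with a median of 3.17 RPM. A second Pcdh9 peak lay 349126 bp from the nearest gene end and was lower, with brain at 18.2 ± 13.8 RPM (SD, n = 4) and lung at 0.887 ± 1.68 RPM (SD, n = 6). Of the 12 peaks with the highest brain level, 6 overlapped a start window: those in Bdh1, Tmeff2, Pcdh9, Wdr17, Ndrg4 and Dctn1.

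The rest of these 12 peaks spanned 71.7 to 95.5 RPM in brain. Ttyh1, which encodes a membrane protein of the tweety family found in glia and neural precursors, gave 98.5 and 68.9 RPM at 50 nuclei and 62.7 and 85.9 RPM at 200 nuclei. Its lung values were 0 to 3.90 RPM with a median of 1.79 RPM, a ratio of 28.6. The peak in Ndrg4, a gene of neurons and heart, gave 73.9 and 132 RPM at 50 nuclei and 60.2 and 66.6 RPM at 200 nuclei, against 0 to 6.65 RPM in lung with a median of 3.78 RPM. Ndrg4 varied more between brain libraries (83.0 ± 32.8 RPM, SD, n = 4) than the peak in Dctn1, the large subunit of dynactin, which carries cargo along axons (72.1 ± 5.44 RPM, SD, n = 4). Neither overlapped the lung values.

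The highest ratio, 51.8, belonged to a peak in Slc38a3, a glutamine transporter of astrocytes, at chr9:107659653-107659896. Brain gave 54.7 and 62.6 RPM at 50 nuclei and 77.7 and 64.4 RPM at 200 nuclei, and lung 0 to 1.63 RPM with a median of 0. The ratio was 49.5 at chr1:172349929-172350283 in Kcnj10, the inward-rectifier potassium channel by which astrocytes take up potassium. There brain gave 90.3 and 110 RPM at 50 nuclei and 72.7 and 110 RPM at 200 nuclei, and lung 0 to 2.22 RPM with a median of 0.650 RPM. Both genes are thus known for roles in astrocytes, and at both peaks every brain library was above every lung library.

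A peak in Map6d1, related to the microtubule protein MAP6, gave 73.9 and 43.8 RPM at 50 nuclei and 20.1 and 62.3 RPM at 200 nuclei in brain and at most 0.325 RPM in lung. Its brain values varied (50.0 ± 23.5 RPM, SD, n = 4) without reaching those of lung. In Myt1l, a zinc-finger factor of neurons, a peak at chr12:29872481-29872729 gave 57.5 and 62.6 RPM at 50 nuclei and 80.2 and 34.4 RPM at 200 nuclei, against 0 to 2.22 RPM in lung. The other genes among the 12 highest ratios were Sstr5 (a somatostatin receptor, ratio 45.4), Enox1 (39.8), Ptprn2 (a dense-core vesicle protein, 38.8), Prima1 (the membrane anchor of acetylcholinesterase, 38.05), Tppp (a tubulin-binding protein of oligodendrocytes, 36.9), Rgs7bp (36.8), Gprc5b (36.5) and Cenpm (35.6). Groups did not overlap at any of the 12, which were ranked on these same values, so this describes the choice and adds no support.

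**Figure D2:**
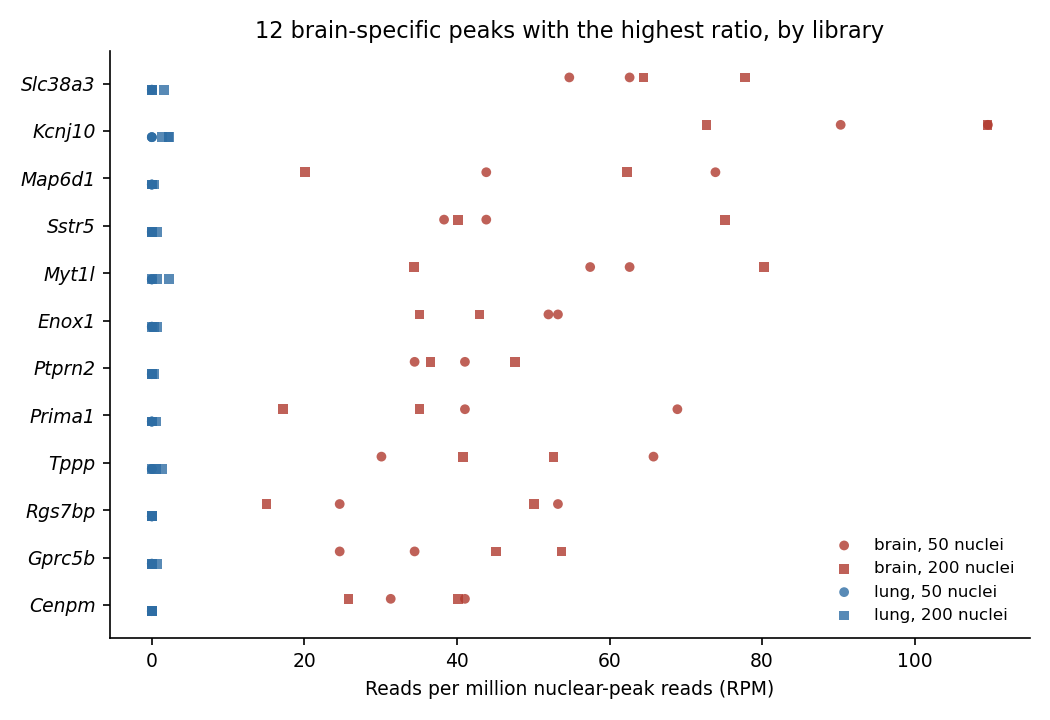
Reads per 1000000 nuclear-peak reads (RPM) in each library at the 12 brain-specific peaks with the highest ratio, named by host or nearest gene; red circles and squares are brain libraries of 50 and 200 nuclei (2 each) and blue ones lung libraries (3 each). All lung points lie at or below 2.22 RPM, and the lowest brain point is 15.04 RPM, at Rgs7bp.

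In 48 peaks, 5.93%, no lung library had a read, against 0.460% of the 10428 and 0.258% of all 23291 peaks away from gene ends. Without lung reads the rule needs a brain mean of 5 RPM, and the lowest mean among the 10428 was 5.26 RPM. All of the 10428 without lung reads were thus among the 809 by construction. As a floor, 3 reads over the lung libraries together were taken, a pooled lung level of 0.383 RPM. The 53 brain reads in Rgs7bp came to 89.4 times that floor, as did the 53 reads at the peak nearest to Cenpm. The peak at chr16:91305624-91305810, 33778 bp from Olig1, came to 86.0 times the floor with 51 reads. One 109374 bp from Prox1, a homeobox gene of the dentate gyrus, came to 82.6 times the floor with 49 reads. These multiples allow for counting error in lung only and take the brain reads as measured. They describe peaks that the rule chose on the same values.

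Peaks were sorted by the cell type their host or nearest gene is known to mark. Brain cell type lists held 40 of the 809 peaks, 4.94%, against 1.94% of the 10428 peaks with enough brain reads and 2.02% of all 23291 away from gene ends. Lists for endothelium, pericytes, lung cells and blood cells held 2 peaks, 0.247%, against 0.892% and 1.32%. No peak belonged to the housekeeping list, which had 15 of the 10428. Most of the 809 peaks, those outside any list, have a host or nearest gene that was not used to mark a cell type, and a nearest gene need not be the gene a site acts on.

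Astrocyte genes had the most by count: 13 peaks at 7 genes, 1.61% against 0.479% of the 10428. That list also offered 50 peaks with enough brain reads, against 27 for pan-neuronal genes and 25 for genes of excitatory neurons. Of the peaks offered, 26% were chosen at astrocyte genes, 37.0% at pan-neuronal genes and 28% at genes of excitatory neurons. The share was lower in every other cell type list. Kcnj10 had a second peak, with 71.1 and 50.1 RPM at 50 nuclei and 45.1 and 64.4 RPM at 200 nuclei in brain and 0 to 12.8 RPM in lung. Ntrk2, the receptor for brain-derived neurotrophic factor that neurons and astrocytes both carry, had 4. The strongest Ntrk2 peak, at chr13:59073671-59073955, gave 46.5 and 81.4 RPM at 50 nuclei and 45.1 and 32.2 RPM at 200 nuclei, against 0 to 17.6 RPM in lung; it overlapped the start of the non-coding RNA Gm53063. Its log2 ratio was -0.20 relative to all reads. The other Ntrk2 peaks averaged 13.2 to 26.1 RPM. The 3 peaks in Lsamp were weaker, at 13.2 to 21.1 RPM, and lay 412371 to 984015 bp from a gene end. Ntrk2 and Lsamp, which neurons also express, thus made up 7 of the 13. Among these, the Ntrk2 peaks at chr13:59073671-59073955 and chr13:59074001-59074140 were close neighbours. They count as 2, and whether they are 1 site was not tested. Cst3, the secreted protease inhibitor cystatin C, had 1 intergenic peak with close values in the brain libraries (17.4 ± 1.44 RPM, SD, n = 4) against 0.0924 ± 0.226 RPM (SD, n = 6) in lung. Single peaks belonged to Id4, Nfia and Slc4a4, an inhibitor of bHLH factors, a factor of glial development and a bicarbonate transporter.

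Pan-neuronal genes held 10 peaks at 7 genes, 1.24% against 0.259%. Myt1l, described above, held the strongest of these. Elavl3, an RNA-binding protein of neurons, gave 24.6 and 25.1 RPM at 50 nuclei and 35.1 and 19.3 RPM at 200 nuclei, and lung at most 3.58 RPM. Every Elavl3 value in brain was above those in lung. Rbfox3, which encodes the neuronal antigen NeuN, had no lung read, but its brain values ran from 4.30 to 37.6 RPM. The peaks in Cntnap2, Rbfox1 and Nrxn3 averaged 13.8 to 28.3 RPM and lay 339910 to 522633 bp from a gene end.

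Genes of excitatory neurons held 7 peaks, 0.865% against 0.240%, and 3 of these were intergenic peaks nearest to Mef2c, a transcription factor of cortical neurons and muscle. The strongest, at chr13:83744920-83745286, gave 52.0 and 62.6 RPM at 50 nuclei and 55.2 and 92.4 RPM at 200 nuclei in brain and 0 to 3.25 RPM in lung. The other 2 averaged 24.3 ± 3.67 and 19.1 ± 4.30 RPM (SD, n = 4), and the weaker one overlapped the start of C130071C03Rik. In Gria1, an AMPA receptor subunit, a peak gave 16.4 and 50.1 RPM at 50 nuclei and 27.6 and 19.3 RPM at 200 nuclei, and lung at most 0.650 RPM. Prox1, Foxp2 and Sv2b had the others. None of the 14 peaks at inhibitory neuron genes that had enough brain reads was among the 809, and none of 9 at cerebellar genes. With so few peaks to draw on, the difference between neuron lists was not tested.

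Oligodendrocyte genes held 6 peaks, 0.742% against 0.326%, and against 0.451% of all peaks away from gene ends. The 34 peaks of this list with enough brain reads had a median ratio of 1.16, against 1.28 over all peaks with enough brain reads. Fa2h, which makes the hydroxylated fatty acids of myelin lipids, gave 60.2 and 47.0 RPM at 50 nuclei and 80.2 and 55.9 RPM at 200 nuclei in brain and 0 to 5.87 RPM in lung. An intergenic peak 5625 bp from Mal, a myelin membrane protein, gave 19.2 and 53.2 RPM at 50 nuclei and 20.1 and 34.4 RPM at 200 nuclei, against at most 0.975 RPM in lung. A peak in Mbp, myelin basic protein, had a brain mean of 35.3 ± 9.90 RPM (SD, n = 4) and a lung mean of 4.01 ± 5.56 RPM (SD, n = 6), a ratio of 7.24 that turned to a log2 value of -0.27 relative to all reads. At Olig1, a bHLH factor of the oligodendrocyte lineage, the site without lung reads gave 27.4 and 28.2 RPM at 50 nuclei and 27.6 and 45.1 RPM at 200 nuclei. A second Olig1 site was lower, at 12.1 ± 7.11 RPM (SD, n = 4). Precursor genes had 3 peaks, at Dscam, Sox11 and Tnr, with 11.5 to 18.0 RPM. Their share was 0.371%, against 0.211% of peaks with enough brain reads and 0.266% of all peaks away from gene ends. The list offered only 22 peaks with enough brain reads, so this count shows little.

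Lists of other cells offered few peaks, and at the overall share of 7.76% about 1 or none would be chosen from most of them, so their counts show little. Microglia had none of the 18 peaks with enough brain reads, pericytes none of 9, alveolar and airway epithelium none of 12 and lung mesenchyme none of 11. Endothelium had 1 of 50, an intergenic peak 7912 bp from Esm1 that overlapped the start of a non-coding RNA, Gm41069, and blood immune cells 1 of 11 (9.09%), near the mannose receptor gene Mrc1, which brain border macrophages also express. The ependyma and choroid plexus list had 1 of 4. It was at Kl, a gene of the choroid plexus, which had 1 intergenic peak 46266 bp away, whose brain values split into 50.1 RPM in 2 libraries and 13.7 and 15.04 RPM in the others.

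**Figure D3:**
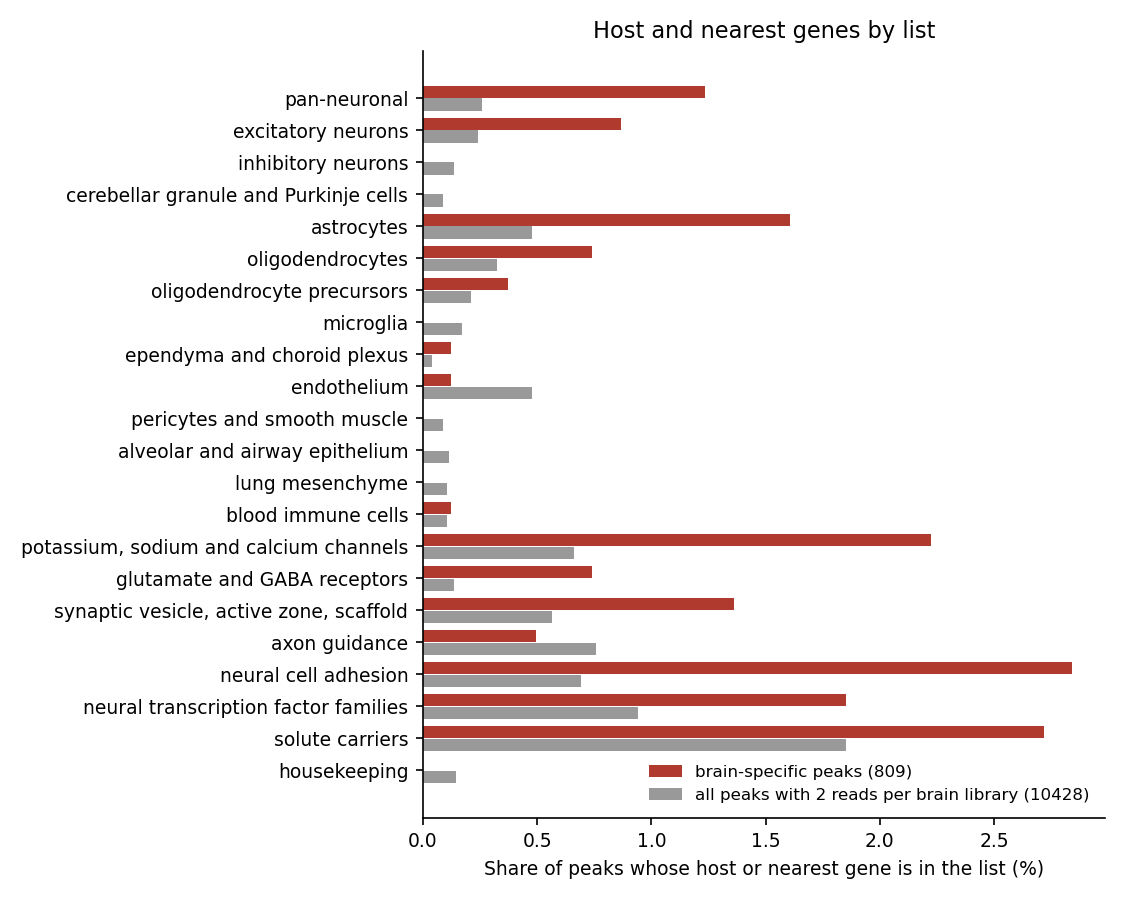
Share of peaks (%) whose host or nearest gene belongs to each list of cell type or function genes, for the 809 brain-specific peaks (red) and for the 10428 peaks with at least 2 reads per brain library that they were chosen from (grey). Neuronal, astrocyte, channel, receptor and adhesion lists have longer red bars; microglia, inhibitory neuron, epithelium, mesenchyme and housekeeping lists have no red bar.

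Function lists held 99 peaks, 12.2% against 5.60% of the 10428. Potassium, sodium and calcium channel genes had 18 peaks (2.22% against 0.662%), one of them at Kcnrg, a channel regulator that the symbol pattern also caught. Besides Kcnj10 they included Cacna1c, the pore of an L-type calcium channel, with 41.0 and 47.0 RPM at 50 nuclei and 70.2 and 21.5 RPM at 200 nuclei against at most 1.46 RPM in lung. Kcnn2, a calcium-activated potassium channel, averaged 48.4 ± 12.5 RPM (SD, n = 4). Glutamate and GABA receptor genes had 6 of the 14 peaks available, at Gabra5, Gria1, Grid1, Grik2, Grik3 and Grik4. The strongest was in the kainate receptor gene Grik3, at 84.8 and 62.6 RPM at 50 nuclei and 27.6 and 73.0 RPM at 200 nuclei, with 0 to 17.1 RPM in lung. Its lowest brain value stayed above the lung range.

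Neural adhesion genes had 23 peaks (2.84% against 0.690%), among them Pcdh9, Adgrb1 and Cdh6. In Adgrb1, an adhesion receptor of synapses, the brain libraries gave 68.4 and 56.4 RPM with 50 nuclei and 10.0 and 21.5 RPM with 200, a difference that did not pass the test between sizes (edgeR adjusted p = 1). Synaptic vesicle and scaffold genes had 11 (1.36% against 0.566%). Shank2, a scaffold of excitatory synapses, had a brain mean of 53.3 ± 22.3 RPM (SD, n = 4) and a lung mean of 6.03 ± 7.75 RPM (SD, n = 6), and Syt7, a calcium sensor of vesicle release, ran from 4.30 to 62.7 RPM in brain and reached 0.325 RPM in lung. Neural transcription factor families had 15 (1.85% against 0.940%), led by a peak 1501 bp from an end of Npas4, an activity-induced factor of neurons, with 73.9 and 68.9 RPM at 50 nuclei and 65.2 and 47.3 RPM at 200 nuclei, and with 0 to 5.86 RPM in lung. Solute carrier genes had 22 (2.72% against 1.85%). Axon guidance genes had 4, at Robo1, Efnb2, Sema5a and Unc5c, a smaller share (0.494%) than among the 10428 (0.758%).

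The 809 peaks belonged to 715 genes. A single peak was found at 638 genes, 2 at 64 and 3 or more at 13. Peaks of 1 gene could lie side by side or far apart. The 2 of Spry2 spanned 0.211 kb in all, those of Wscd2 0.222 kb and those of Tenm4 870 kb. Igsf11, an adhesion protein of synapses, had 5, of which 2 lay in the gene and 3 outside it at up to 375513 bp. They averaged 10.2 to 22.1 RPM in brain, and only one, at chr16:38941412-38941509, had no lung read. Ercc6l2, a DNA repair helicase, had 4 intergenic peaks, 3 of them between 17029 and 19008 bp from its end, and at one of the 4 brain and lung overlapped. Slc8a2, a sodium-calcium exchanger of neurons, had 3 gene-body peaks. The strongest of these gave 104 and 72.0 RPM at 50 nuclei and 60.2 and 38.7 RPM at 200 nuclei, against 0 to 15.6 RPM in lung.

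Ttyh1 had 3 peaks within 1 kb of each other, at 79.0 ± 16.3, 39.9 ± 16.8 and 21.0 ± 8.89 RPM (SD, n = 4). Ralgapa2, Rnf220, Gramd1b, Epb41l1, Stox2 and Xcl1 had 3 each, with brain means of 12.7 to 33.1 RPM, and at 1 peak each of Rnf220 and Stox2 brain and lung overlapped. Some of these were close neighbours, such as the 2 Ralgapa2 peaks at chr2:146348030-146348120 and chr2:146348165-146348262, and the peaks of Rnf220 and Stox2 lay farther apart. Over all 809, 59 (7.29%) had another of the 809 within 10 kb, whereas 35.4% of the 10428 had another of the 10428, a denser set.

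Of the 59 peaks at a transcript start, 39 overlapped a start of a protein-coding gene, 38 of them a start of the host gene itself away from its outer ends, and 20 overlapped only starts of non-coding RNAs. The share at a start, 7.29%, was lower than the 13.5% among the other peaks with enough brain reads. It was close to the 7.52% of all 23291 peaks away from gene ends. The start windows had a median GC content of 57.0% and a ratio of observed to expected CpG of 0.491. Windows at the 1296 other peaks that overlapped a start had 61.0% and 0.726, and all 32851 windows 52.7% and 0.384. The windows at brain-specific peaks were thus poorer in CpG than those at the other peaks and richer than the windows of all genes.

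Short motifs were counted on both strands of the 300-base windows, taking for each peak the window it overlaps most. GGGCGG, the core of the GC box, was in 22 of 59 windows (37.3%), against 61.7% at the other peaks and 35.7% of all windows. TGACGTCA, the cAMP response element bound by CREB, was in 5 (8.47%), against 2.39% and 1.79%. TATAAA was in 6.78%, 5.32% and 13.6%. The E-box words CAGCTG and CAGATG were in 22.03% and 18.6%, against 16.4% and 11.7% at the other peaks and 16.3% and 17.2% of all windows. ACAATG, a core of SOX sites, was in 15.3%, 8.95% and 12.6%, and the octamer ATTTGCAT in 3.39%, 1.62% and 1.74%. The full palindromic NFI site was in none of the 59 and in 0.0365% of all windows. GTTGCC, a word of the X-box bound by RFX factors, was added after the sequences above had been read, and stood in 13 windows (22.03%), against 12.1% and 12.5%. The full palindromic X-box was in 1 of the 59, that of 1500009C09Rik, and in 0.298% of all windows. Such matches describe letters and not binding, and the counts are small.

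The cAMP response element lay in the windows of Zdbf2, Celf3, Prkcz, Mapk10 and Trak1. Both sequences shown here, 250 bases before a start and in RefSeq letters, mark it in capitals, to show it in the context of a start: chr3:94484080-94484379 on the plus strand for Celf3, an RNA-binding protein of neurons, and chr9:121403196-121403495 on the plus strand for Trak1, an adaptor that moves mitochondria along axons. The Celf3 peak gave 30.1 and 34.4 RPM at 50 nuclei and 12.5 and 19.3 RPM at 200 nuclei in brain and 0 to 8.81 RPM in lung. The Trak1 peak gave 35.6 and 25.1 RPM at 50 nuclei and 32.6 and 19.3 RPM at 200 nuclei, and 0 to 9.95 RPM in lung. Brain and lung did not overlap at either. The motif lay inside the Trak1 peak, but before the Celf3 peak and so outside it.
Celf3: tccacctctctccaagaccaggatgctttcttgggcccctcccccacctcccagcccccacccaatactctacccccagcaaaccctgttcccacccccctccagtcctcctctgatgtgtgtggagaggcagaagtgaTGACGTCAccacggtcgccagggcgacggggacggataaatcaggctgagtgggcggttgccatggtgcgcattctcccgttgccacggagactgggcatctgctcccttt
Trak1: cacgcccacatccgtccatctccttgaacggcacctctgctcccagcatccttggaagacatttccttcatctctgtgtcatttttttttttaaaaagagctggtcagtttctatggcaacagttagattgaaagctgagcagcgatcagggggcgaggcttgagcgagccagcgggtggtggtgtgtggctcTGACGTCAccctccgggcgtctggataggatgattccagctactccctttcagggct

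One intergenic peak, at chr7:79504844-79504943, lay 321 bp from the hairpin of the microRNA gene Mir9-3, although its nearest protein-coding gene was Polg. The microRNA miR-9 is abundant in neural precursors and neurons. Its mature strands are shown with the seed, bases 2 to 8, in capitals, as RefSeq gives them. The peak gave 35.6 and 21.9 RPM at 50 nuclei and 52.7 and 15.04 RPM at 200 nuclei in brain and 0 to 11.7 RPM in lung with a median of 0.650 RPM, and the groups did not overlap.
miR-9-5p: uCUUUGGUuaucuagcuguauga
miR-9-3p: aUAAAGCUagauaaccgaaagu

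Intergenic peaks often lay in genes of long non-coding RNAs: 84 of the 310 did, 27.1%, close to the 24.3% of intergenic peaks with enough brain reads. Those over a non-coding start included the peak of ratio 45.4 nearest to Sstr5, at the start of Gm33727, with 38.3 and 43.8 RPM at 50 nuclei and 40.1 and 75.2 RPM at 200 nuclei and at most 0.650 RPM in lung. The peak at 1500009C09Rik, nearest to Cenpm, gave 41.0 and 31.3 RPM at 50 nuclei and 40.1 and 25.8 RPM at 200 nuclei. Lung had no read there.

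The gene ends of the host genes, which the rule left out, were read in the same libraries and under the same contrast, so their values are a description too. Of 444 host genes, 246 had a peak within 1 kb of an end. Among these 342 gene-end peaks, 60 (17.5%) were called higher in brain by edgeR and 4 lower, against 6.36% called higher among all 13379 gene-end peaks tested, and their median log2 difference was 0.67 against 0.41 for the others. Ends with few or no lung reads included those of Elavl3 (28.8 ± 8.75 RPM in brain, SD, n = 4, with no lung read), Tnr, an extracellular matrix protein (21.97 ± 0.448 against 0.122 ± 0.299 RPM), Enox1, Lsamp (21.9 ± 9.98 against 0.618 ± 1.07 RPM) and Cntnap2 (17.5 ± 5.55 against 0.799 ± 1.27 RPM). At Ntrk2 the end peak gave 40.4 ± 21.7 against 2.17 ± 1.84 RPM, and at Kcnj10 47.9 ± 14.9 against 5.11 ± 5.06 RPM.

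Other hosts had ends open in both tissues. Ralgapa2, which encodes a subunit of a GTPase-activating complex, had an end peak of 200 ± 54.1 RPM in brain (SD, n = 4) and 264 ± 54.2 RPM in lung (SD, n = 6), although its 3 internal peaks had ratios of 7.67 to 20.4. For Amotl2, a protein of cell junctions, the end gave 90.7 ± 28.3 and 88.8 ± 26.1 RPM. The Dctn1 end gave 31.2 ± 19.8 and 27.5 ± 14.4 RPM, and its internal peak had a ratio of 26.8. In all, 31 of the 246 hosts had an end peak with a ratio of at least 6, and 56 had one called higher in brain. These counts per host have no share over all genes beside them, and a host with several end peaks had more chances. By peak, 35 of the 342 (10.2%) had such a ratio, against 3.04% of all 13405 autosomal gene-end peaks.

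The number of captured nuclei was not part of the rule, except that every brain library needed 2 reads. Between brain libraries of 200 and 50 nuclei, edgeR called none of 37464 peaks and hence none of the 809 (0.0%), with 400 peaks (1.07%) at an unadjusted p under 0.05, and DESeq2 called none. Of the 10428 peaks that also had the reads required in brain 32 (0.307%) had such a p, and of the 809 none. The median log2 difference over the 809 was -0.07 (quartiles -0.53 and 0.40), against -0.05 over all peaks. Its extremes were a peak in Ogdh, an enzyme of the citric acid cycle, at -2.04 (21.9 and 28.2 RPM at 50 nuclei, 7.52 and 4.30 RPM at 200 nuclei), and one in Gpsm1, a regulator of G-protein signalling, at 2.11 (10.9 and 9.40 RPM against 52.7 and 34.4 RPM). With 2 libraries per size and a biological coefficient of variation of 0.598, differences of this size did not pass the test, and the 0 calls do not show that the sizes gave equal levels.

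**Figure D4:**
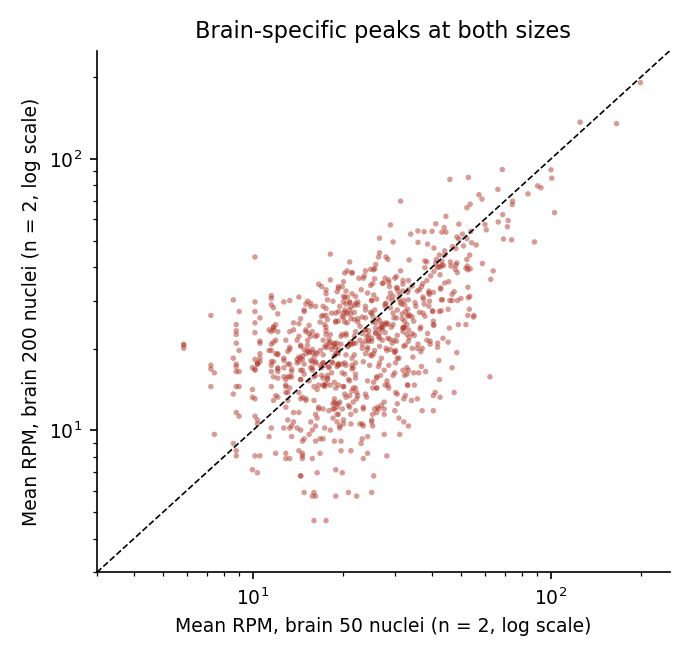
Mean RPM of the 809 brain-specific peaks in brain libraries of 50 nuclei (horizontal, n = 2) and 200 nuclei (vertical, n = 2), both on log scales, with the line of equality dashed. The points lie around the line, with a median log2 difference of -0.07, and spread most at low levels.

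In lung, edgeR called none of the 37464 peaks between sizes (0.0%), with 3499 peaks (9.34%) and 118 of the 809 (14.6%) at an unadjusted p under 0.05, against 9.12% of the 10428. DESeq2 called 2, none of them among the 809. The median log2 difference between 200 and 50 nuclei in lung was 1.72 over the 809, against 0.44 over all peaks and 0.42 over the 10428. The rule chose the 809 partly for a low mean lung level, so these lung values had entered the choice. Nothing is read from the shares and medians of the 809 between lung sizes. A read was found at 60.7 to 65.0% of the 809 peaks in the lung 200-nuclei libraries, at 41.9% in lung 50-nuclei replicate 1 and at 6.92 and 4.08% in replicates 2 and 3. Without replicate 1 of the lung 50-nuclei libraries 873 peaks were called, and without replicate 3 there were 3. Replicate 1 gave 1050 of the reads at the 809 peaks in the lung 50-nuclei libraries, and replicates 2 and 3 gave 229 and 135.

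Selecting at one size and reading at the other gave values that the selection had not used. The chosen peaks needed 2 reads in each brain library of the choosing size, and the peaks they are set against did not. The sets thus differ in that requirement too. Both sizes share the same peaks, and the labels speak of technical replicates, so the other size is not an independent sample. By the same rule in the 200-nuclei libraries alone, 818 peaks were chosen, and 583 of them (71.3%) had a ratio of at least 6 in the 50-nuclei libraries, against 9.20% of all peaks away from gene ends. Both brain libraries were above all 3 lung libraries at 81.2%, against 18.8%. edgeR at 50 nuclei alone called 1 of the 818 higher in brain and 2 of 33251 peaks in all (0.00601%). With lung 50-nuclei replicate 1 as the only lung library of that size, 64.8% of the 818 had a ratio of at least 6, against 9.71% of all.

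Chosen at 50 nuclei were 1845 peaks, of which 585 (31.7%) had a ratio of at least 6 at 200 nuclei, against 3.77% of all peaks away from gene ends. Both brain libraries exceeded all 3 lung libraries at 64.4%, against 18.4%. In the 200-nuclei libraries alone, edgeR called 604 of the 1845 (32.7%) higher in brain and 9 lower, against 5.44% of all 37249 peaks called higher. The 549 peaks chosen at both sizes made up 67.1% of those chosen at 200 nuclei and 29.8% of those chosen at 50. All 549 were among the 809, and the other 260 reached the ratio at 1 size only.

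**Figure D5:**
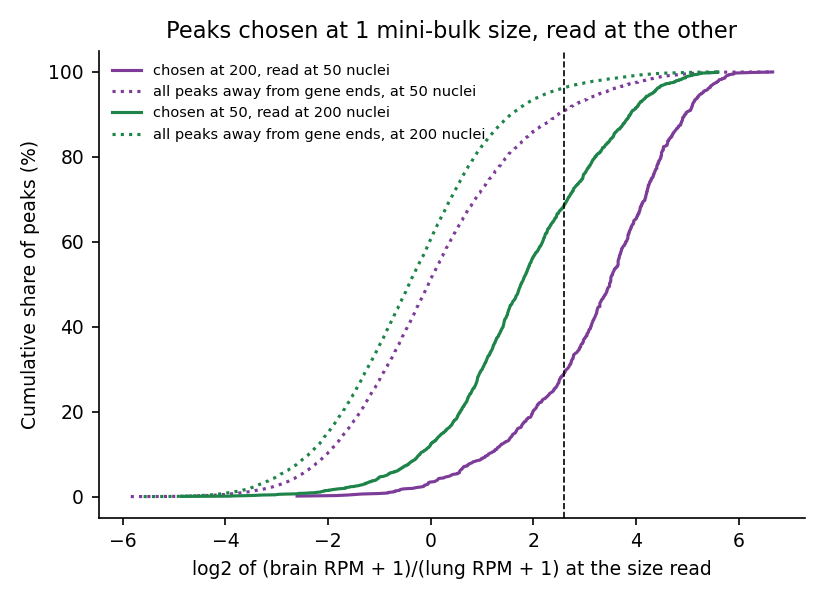
Cumulative share of peaks (%) by log2 of the ratio at the size that was not used to choose them: solid purple, 818 peaks chosen at 200 nuclei and read at 50; solid green, 1845 peaks chosen at 50 nuclei and read at 200; dotted, all 23291 autosomal peaks away from gene ends; dashed line, a ratio of 6. The solid curves lie right of the dotted ones, and 71.3% of the peaks chosen at 200 nuclei and 31.7% of those chosen at 50 fall at or beyond the dashed line. The dotted curves have no requirement on reads.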

How the data were processed

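A single matrix of raw read counts, as whole numbers, was deposited by the authors, with 37513 peaks and 10 libraries. The submitters' processing notes name the build mm10 and, with no role or order, R 4.1.0, MACS2 2.2.7.1, SAMtools 1.14, Bowtie2 2.4.5, Trimmomatic 0.36, bcl2fastq 2.20, Picard and deepTools 3.1.3. How peaks were merged, whether duplicates were removed, whether reads were shifted for Tn5 and whether peak starts count from 0 or 1 is not given in the sources used here; coordinates are printed as deposited, and width is end minus start.

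The RPM, ratios and tests were computed here with Python 3.11.15 and R 4.3.3, without the 2 mitochondrial rows. A peak was assigned to the protein-coding RefSeq gene (GRCm38.p6) that holds its centre, or else to the gene with the nearest end. The gene table gives neither strand nor exons, so placement in exons, introns or UTRs was not used here. Tests were edgeR 4.0.16 quasi-likelihood F tests with TMM scaling on the 37464 nuclear peaks with at least 10 reads in all. One model held the 4 groups, with Benjamini-Hochberg adjustment over all peaks at 0.05. The fit was checked on simulated data, where it missed most of the large changes placed between the brain sizes, so it has little power there. DESeq2 1.42.0 was an alternative.

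The peaks, the 22 gene lists and the tests were chosen with earlier results of these data known. The naming rule took the 12 highest in brain RPM and in ratio, all at cell type genes or at genes with 3 or more peaks, the 3 next to the threshold and the 3 farthest from a gene end; 97 of these are reported and the others are not reported here. Function lists are shown by their strongest peaks. Members shown for a start sequence, a motif, a microRNA or a size difference, and the host ends, were picked after their values were seen.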

Additional observations from a re-analysis of the deposited data

Results flagged for a closer look

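At 10 of the 97 peaks reported by rule, 1 of the 4 brain libraries lay far from the other 3 by Dixon's criterion, which chance meets in about 1 in 20 groups. The highest library stood apart at 9 of them: Sstr5 with 75.2 RPM, the Olig1 site without lung reads with 45.1 RPM, Gpr37 with 22.6 RPM, Foxp2 with 22.6 RPM, Igsf11 (chr16:39056173-39056269) with 35.1 RPM, Stox2 (chr8:47334247-47334459) with 56.4 RPM, Nrxn3 (chr12:89812248-89812356) with 38.3 RPM, Ralgapa2 (chr2:146348030-146348120) with 31.3 RPM and Tank with 28.2 RPM. At Prox1 the lowest did, with 18.8 RPM. For Sstr5 and Olig1 the library was brain 200-nuclei replicate 2, for Gpr37, Foxp2 and Igsf11 brain 200-nuclei replicate 1, for Nrxn3 brain 50-nuclei replicate 1, and for Prox1, Stox2, Ralgapa2 and Tank brain 50-nuclei replicate 2.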

How the results depend on the processing

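The number of peaks meeting the rule was 809. It was 1344 with a ratio of at least 4, 426 with a ratio of at least 10, 365 with 3 RPM added to both means and 0 relative to all reads with mitochondrial reads included. Leaving out each library gave 777 to 924, and the other settings stayed within 1.5 times; 645 of the 809 were kept when every library was thinned to the smallest nuclear total, and 629 without lung 50-nuclei replicates 2 and 3.

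Relative to all reads in peaks, the log2 ratio of 19 named peaks fell below 0, since brain libraries hold more mitochondrial reads: Bdh1 -0.68, Wdr17 -0.31, Arhgef10l -0.27, Mbp -0.27, Amotl2 -0.22, Tank -0.22, Ercc6l2 -0.21, Brinp1 -0.21, Ntrk2 -0.20, Id4 -0.15, Tmeff2 -0.14, Gramd1b -0.10, Tnr -0.062 and Xcl1 -0.025, with Stox2 at -0.21, -0.092 and -0.028 and Igsf11 at -0.11 and -0.049.

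Between brain sizes every setting gave 0 calls. Between lung sizes DESeq2 called 2 peaks, leaving out each library gave 0 to 873, and leaving out lung 50-nuclei replicates 2 and 3 together gave 12. For brain against lung 3624 peaks were called, 5502 with DESeq2, 8379 without lung 50-nuclei replicates 2 and 3, and 1411 to 6630 without each library in turn. The replicate block gave 0, 0 and 1843 calls for these 3 comparisons. Deviations of same-numbered libraries from their group means correlated at -0.03 to 0.02. With 2 brain libraries per size such deviations mirror each other, so these values cannot decide whether the numbers pair the samples. The cause of the changes in calls was not tested.

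At 34 brain reads per median peak, single peaks are imprecise. Without a genome sequence, peaks outside start windows were not read for sequence.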
